A study of Caenorhabditis elegans with 2 samples.

Results

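The genes of the translation initiation and elongation factors of Caenorhabditis elegans were examined for regions bound by LIN-13, a zinc finger protein of the synMuv B group of transcriptional regulators. The genes were chosen by name, as the protein-coding genes whose symbol starts with eif-, eef-, ife-, iff-, ifg- or ifet-, which gave 40 of the 19973 coding genes on the 6 nuclear chromosomes. A gene was counted when a region had its summit near any annotated transcription start site (TSS) of the gene, at most 1000 bp before or 200 bp after it. These lists were known to hold many regions at such genes when the group was chosen, so its counts are descriptions of the lists and no test was made on them. Regions came from chromatin immunoprecipitation and sequencing (ChIP-seq) of whole mixed-stage embryos of strain OP51, both sexes pooled. Its genotype is unc-119(ed3) III with the transgene wgIs51, and the target is described as LIN-13 carrying enhanced GFP. All worms carried the tagged protein, the antibody is labelled lin-13, and no untagged strain was analysed here. The only group held 2 biological replicates, each with a list of ranked regions, beside a list from both replicates pooled. A final list of 1534 regions was made by the authors with the irreproducible discovery rate (IDR), a measure of how well ranks recur between replicates. A place in it does not mean that a region ranked high in each replicate. Only 51.5% of its regions were among the first 1534 of both. Sequencing depth is unknown, since read counts are not part of the lists, and the labelled size range of the fragments was 150 to 350.

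Translation factors are proteins that act on the ribosome without being part of it. Initiation factors bring the initiator tRNA and the capped mRNA to the small ribosomal subunit and find the start codon, and elongation factors deliver aminoacyl-tRNAs and move the ribosome along the mRNA. Nearly every growing cell needs them, and in early worm embryos many of their mRNAs are supplied by the mother. ChIP-seq reports where LIN-13 was recovered on DNA and gives no level of the mRNA.

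The sequence around 6 summits is printed here, because these are the strongest regions at the genes for which sequence is printed (eif-3.C, eef-2 and eif-3.E, which ranked among them, are not shown). Each line runs 5′ to 3′ along the strand of the named gene and covers 100 bp on each side of the summit, shortened at an annotated UTR for iff-2 and eef-1G. Capitals mark the run ACGCTCC in ifet-1, iff-2 and eif-3.B, the E2F-like motif TTGGCGC in eef-1G, and TATAAA overlapping its own reverse complement in eif-3.B. The regions are chrIII:4475556-4475756, minus strand (ifet-1), chrII:8561368-8561545, minus strand (iff-2), chrV:10965615-10965718, plus strand (eef-1G), chrIII:6971998-6972198, minus strand (eef-1A.1), chrII:14795058-14795258, plus strand (eif-3.B), and chrII:6968487-6968687, minus strand (eif-2Bgamma), all in ce11.
ifet-1: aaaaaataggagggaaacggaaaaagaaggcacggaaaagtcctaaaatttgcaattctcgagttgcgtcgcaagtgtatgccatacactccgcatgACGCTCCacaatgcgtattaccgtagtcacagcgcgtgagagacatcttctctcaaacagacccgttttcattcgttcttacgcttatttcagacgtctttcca
iff-2: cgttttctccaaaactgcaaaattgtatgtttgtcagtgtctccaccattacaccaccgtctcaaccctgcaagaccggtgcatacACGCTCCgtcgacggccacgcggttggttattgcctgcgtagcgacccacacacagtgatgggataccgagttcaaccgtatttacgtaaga
eef-1G: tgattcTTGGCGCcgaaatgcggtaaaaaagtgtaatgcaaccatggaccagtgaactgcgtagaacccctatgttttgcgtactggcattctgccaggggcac
eef-1A.1: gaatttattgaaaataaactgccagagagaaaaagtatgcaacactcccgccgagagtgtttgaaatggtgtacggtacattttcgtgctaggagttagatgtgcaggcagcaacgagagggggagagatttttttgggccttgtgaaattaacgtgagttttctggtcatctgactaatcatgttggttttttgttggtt
eif-3.B: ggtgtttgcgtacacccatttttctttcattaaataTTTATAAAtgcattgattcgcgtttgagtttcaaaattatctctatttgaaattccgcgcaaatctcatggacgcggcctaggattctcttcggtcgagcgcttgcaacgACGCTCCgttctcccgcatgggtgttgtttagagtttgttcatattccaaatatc
eif-2Bgamma: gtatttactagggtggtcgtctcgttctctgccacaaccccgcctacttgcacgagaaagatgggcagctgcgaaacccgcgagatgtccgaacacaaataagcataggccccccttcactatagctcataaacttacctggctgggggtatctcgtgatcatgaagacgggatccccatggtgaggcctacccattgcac

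Of the 40 genes, 21 (52.5%) had an IDR summit in the window, against 8.15% of all coding genes (1628 of 19973). The 21 summits were 21 different regions, and each held the same rank by signal in the IDR and the pooled list, rank 1 being the strongest of 30000 pooled regions. The share varied with the role of the gene. All 6 genes of the elongation factors eEF1 and eEF2 had an IDR summit, as did 8 of the 11 eif-3 genes of eIF3, the large scaffold of initiation. Only 2 of the 7 genes of cap binding and eIF4F and 1 of the 8 genes of eIF2 and its exchange factor eIF2B had one. The strongest were at ifet-1 and iff-2, at ranks 6 and 10, and the signal of the 21, in the peak caller's units, ran from 33.3 at eif-1 to 280.3 at ifet-1, where the lowest of the whole IDR list was 32.82 and the median 49.53. The median rank of the 21 was 661, near the 671 of all coding genes with an IDR summit. Within the first 500 ranks were 9 of the genes (22.5%, all coding genes 3.16%).

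**Figure D1:**
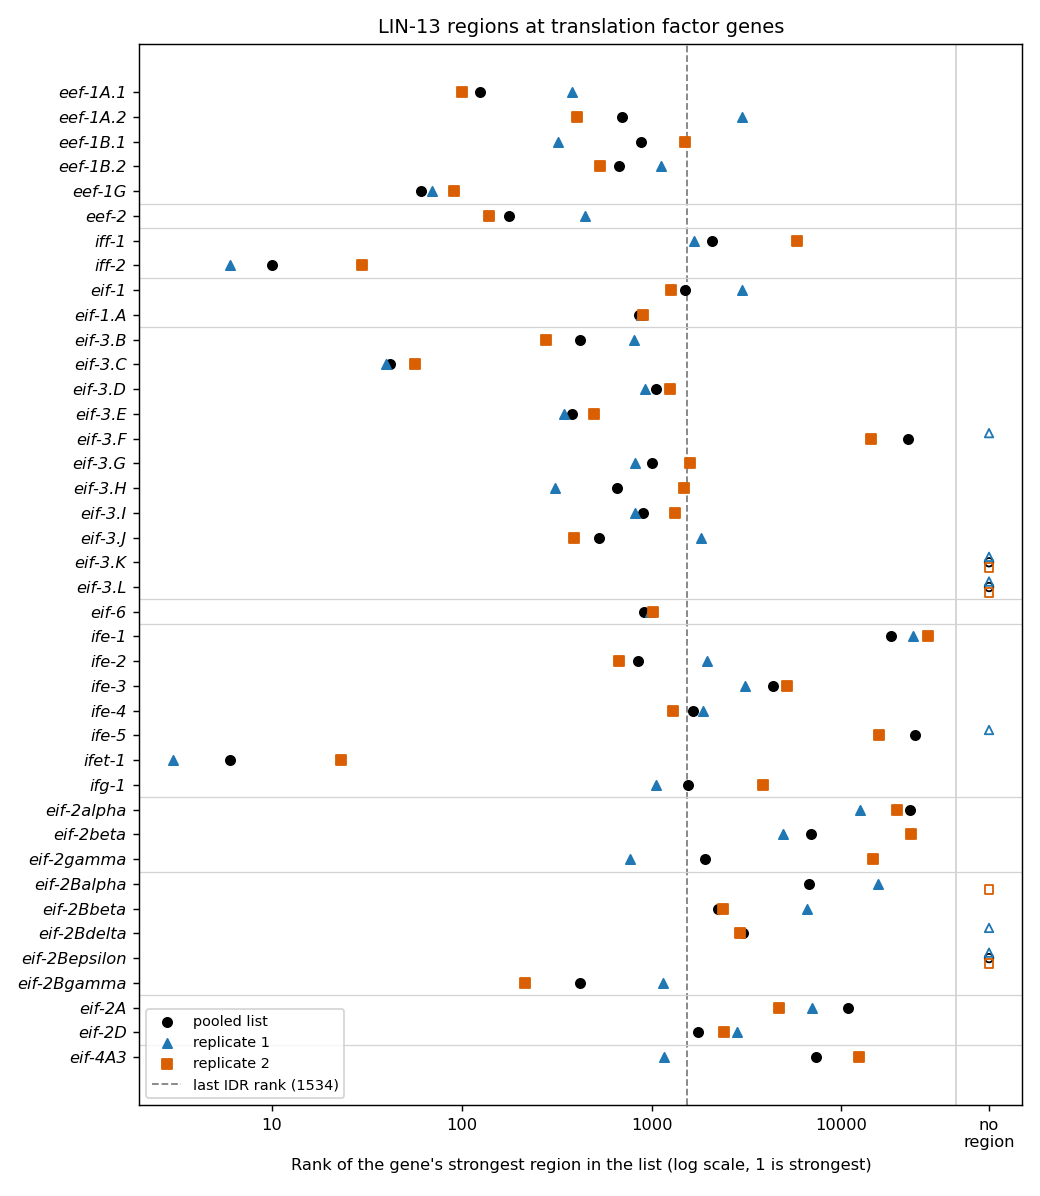
Rank of the strongest region in the window of each of the 40 genes (log scale, 1 is strongest; the region can differ between lists) in the pooled list (circles), replicate 1 (triangles) and replicate 2 (squares), in blocks by role, with open symbols at the right where a list has no region. The 6 elongation factor genes at the top all lie left of the dashed line at rank 1534 in the pooled list, and the 3 genes eif-3.K, eif-3.L and eif-2Bepsilon have no region in any list.

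Elongation factor eEF1A, which carries aminoacyl-tRNA to the ribosome, is encoded by eef-1A.1 (WBGene00001168) and eef-1A.2 (WBGene00001169), whose annotated proteins of 462 residues are identical and whose coding sequences are 94.0% identical. The eef-1A.1 summit lay 386 bp upstream of its TSS with signal 106.7, at pooled rank 125 and at ranks 381 and 100 in replicates 1 and 2. The eef-1A.2 summit, on the X chromosome at chrX:7823129-7823412, lay at nearly the same distance, 383 bp, with signal 51.9 and pooled rank 699. Its ranks in replicates 1 and 2 were 3004 and 405, so that it stood outside the first 1534 regions of replicate 1. The identity of the sequence upstream of the copies was not computed, and reads were not examined here.

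The exchange complex eEF1B recharges eEF1A with GTP. Its gamma subunit gene eef-1G (WBGene00008920) had the strongest region of the elongation factors, at chrV:10965611-10965751, with signal 130.6, pooled rank 61 and ranks 70 and 91 in replicates 1 and 2. Its summit was 4 bp from the TSS. The beta-type subunit genes eef-1B.1 (WBGene00018846, chrIII:7973239-7973522) and eef-1B.2 (WBGene00012768, chrIV:15037019-15037302) had weaker regions, at pooled ranks 880 and 677. The replicates ordered these differently, since eef-1B.1 ranked 321 and 1505 and eef-1B.2 ranked 1122 and 538. The eef-1B.1 summit was the only one of the 21 downstream of the TSS of its gene, by 5 bp, within the annotated 5′ UTR. The gene eef-2 (WBGene00001167), whose product moves the ribosome by a codon after each peptide bond, had its summit 7 bp upstream of the TSS at chrI:9163470-9163581. The signal was 95.3, at pooled rank 177 and ranks 446 and 140. All 6 elongation factor regions were thus within the first 1000 pooled ranks, and those at eef-1G, eef-2 and eef-1B.1 were the 3 of the 21 whose summits lay within 10 bp of the TSS.

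The paralogs iff-1 and iff-2 encode eIF5A, a factor with a hypusine residue that helps ribosomes through stretches where elongation stalls. Their annotated proteins, of 194 and 160 residues, are 69.2% identical. The iff-2 region (WBGene00002065, chrII:8561358-8561534), shown above, had signal 240.4, a summit 78 bp upstream of the TSS, pooled rank 10 and ranks 6 and 30 in the replicates. At iff-1 (WBGene00002064) the strongest region was far lower in each list, with signal 26.7 and pooled rank 2080, and was not in the IDR list. It ranked 1673 in replicate 1, and the strongest replicate 2 region in the window, at rank 5829, was a different one with its summit 565 bp away. In C. elegans iff-1 is known for a role in the germ line and iff-2 for one in somatic cells.

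Initiation factor eIF3 binds the small subunit and holds together the other initiation factors. Of its 11 genes taken by the name rule, which leaves out the eIF3a gene egl-45, eif-3.B, eif-3.C, eif-3.D, eif-3.E, eif-3.G, eif-3.H, eif-3.I and eif-3.J had IDR summits. The strongest was at the core subunit gene eif-3.C (WBGene00001226, chrI:9979821-9979960), with signal 146.0, pooled rank 42 and nearly equal ranks of 40 and 57. Ranks between 347 and 495 were found for eif-3.E, and eif-3.B, another core subunit gene, ranked 419 in the pooled list and 811 and 278 in replicates 1 and 2. The regions at eif-3.H, eif-3.I, eif-3.G and eif-3.D were lower, at pooled ranks 661, 902, 1012 and 1056. In replicate 1 these were at 311, 821, 814 and 919, and in replicate 2 at 1485, 1329, 1591 and 1247, so eif-3.H, eif-3.G and eif-3.D stood higher in replicate 1. At eif-3.I the strongest replicate 2 region in the window had its summit 121 bp from the IDR summit, over the 100 bp allowed for a match. The remaining region, of eif-3.J, a loosely held subunit, ranked 526, with 1816 and 391 in the replicates, and lay 956 bp upstream of the TSS in the 3′ UTR of slc-25A46. The summit at eif-3.G lay 312 bp upstream of the TSS and the other 6 at 200 to 258 bp, all in intergenic sequence.

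Among the eIF3 genes with no IDR summit, eif-3.F had a region at rank 22359 of the 30000 in the pooled list and at 14300 of the 30000 in replicate 2, and none in replicate 1. For eif-3.K and eif-3.L no region of any list lay in the window. These last encode subunits of the periphery of the complex.

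The factors eif-1 and eif-1.A act together in the recognition of the start codon. At eif-1.A (WBGene00019162, chrIV:4810427-4810710) the region had signal 46.6, pooled rank 856 and closely matched ranks of 876 and 898. At eif-1 (WBGene00020868, chrII:4993849-4994132) it was the weakest of the 21, with signal 33.3, pooled rank 1498 and ranks 3007 and 1269. Factor eif-6 (WBGene00001234), which keeps the large ribosomal subunit from joining too early, had a region with signal 45.0, pooled rank 913 and ranks 979 and 1023.

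The genes of cap recognition ran from near the top of the lists to near their end. The gene ifet-1 (WBGene00004132) encodes the worm homolog of 4E-T, a partner of the cap-binding protein eIF4E that represses translation. Its region, chrIII:4475561-4475760, had signal 280.3, pooled rank 6 and ranks 3 and 23. The summit lay 506 bp upstream of ifet-1 in an annotated noncoding exon and only 262 bp upstream of rps-1, a ribosomal protein gene on the opposite strand, so the region cannot be assigned to ifet-1 alone. Of the 5 eIF4E genes, ife-2 (WBGene00002060, chrX:382739-383022) had the single IDR summit, with signal 46.9, pooled rank 846 and ranks 1951 and 678. The others followed at pooled ranks 1661 for ife-4, 4362 for ife-3, 18240 for ife-1 and 24317 for ife-5. The closest relative of ife-1 by annotated protein was ife-5 (69.4% identity), and ife-2 was 60.0% identical to ife-1 and 52.0% to ife-5. The scaffold eIF4G gene ifg-1 is described with the members just outside the threshold.

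Factor eIF2 brings the initiator tRNA, and eIF2B restores eIF2 to its GTP-bound form. No gene of the 3 eIF2 subunits had an IDR summit. The eif-2gamma region ranked 1916 in the pooled list, but its strongest regions in replicates 1 and 2 were at ranks 769 and 14717 and at different positions, 131 and 724 bp upstream. For eif-2beta the ranks were 6934, 4956 and 23319 in the pooled list and replicates 1 and 2, and for eif-2alpha 22950, 12593 and 19565, where the replicate 1 region was 1231 bp from the pooled summit. Of the 5 eIF2B genes, eif-2Bgamma (WBGene00004090) had an IDR summit, at pooled rank 421 with signal 65.7 and ranks 1143 and 215. That summit was 939 bp upstream of the gene, in an intron of C15F1.5 and 29 bp from the start of sup-39, a noncoding gene annotated as an snRNA. The pooled ranks of eif-2Bbeta, eif-2Bdelta and eif-2Balpha were 2249, 3030 and 6790, and eif-2Bepsilon had no region in any list. Replicate 1 held no region at eif-2Bdelta, and replicate 2 none at eif-2Balpha.

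The alternative initiator tRNA factors eif-2D and eif-2A ranked 1767 and 10894. The gene eif-4A3, a helicase of the exon junction complex, ranked 7386 in the pooled list and 1157 in replicate 1, and its strongest replicate 2 region, at rank 12320, was a different one. Of the 16 genes with a pooled region but no IDR summit, eif-2alpha, eif-2gamma, eif-4A3, ife-3, ife-5 and iff-1 had a replicate region over 100 bp from the pooled one.

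**Figure D2:**
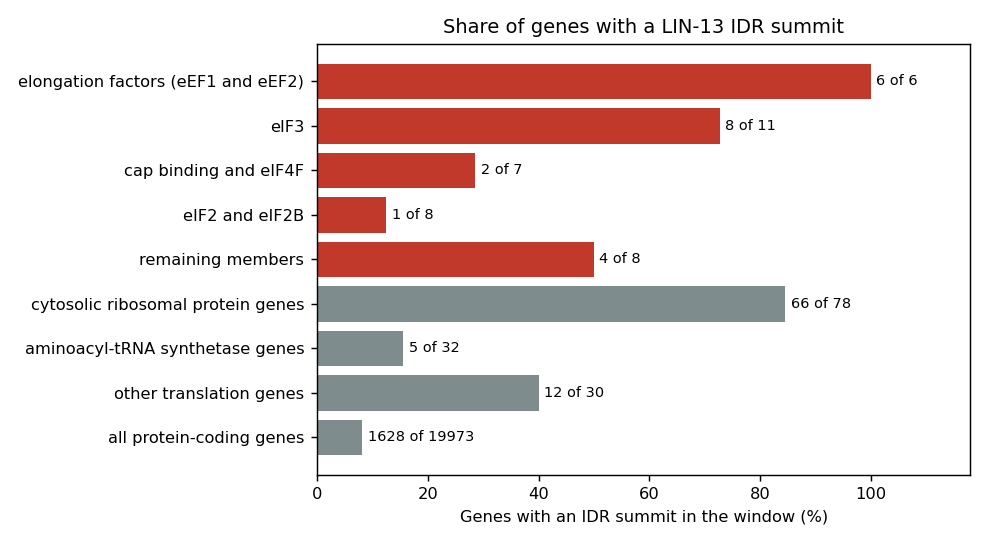
Share (%) of genes with an IDR summit in the window for translation factor genes by role (red) and for other gene groups (grey), with counts beside the bars. The elongation factors (6 of 6) and eIF3 (8 of 11) stand high, and eIF2 with eIF2B (1 of 8) lies near the share of all coding genes.

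The 3 strongest members outside the IDR list were ifg-1, ife-4 and eif-2D. The ifg-1 region (WBGene00002066, chrII:8216447-8216730) had signal 32.5 and pooled rank 1558, just past the threshold at 1534, and lay 633 bp upstream. Its ranks in replicates 1 and 2 were 1056 and 3872. The eif-1 region just inside had signal 33.3 and rank 1498. The −log10 q of ifg-1 was 3.51, the highest value in the pooled list, which every IDR summit at the 21 genes also had. The ife-4 region (WBGene00002062, chrX:1103738-1104021) had signal 31.1, rank 1661, a distance of 332 bp and ranks 1870 and 1296. The eif-2D region (WBGene00016113, chrII:5691477-5691760) had signal 29.9, rank 1767, a distance of 102 bp and ranks 2814 and 2419. The members just inside and just outside the list thus had nearly equal signals.

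Counts that took in weaker regions were larger for the members and for all coding genes alike. A pooled region with q of at most 0.05 lay in the window of 28 members (70.0%, all coding genes 14.3%), the added 7 being ifg-1, ife-4, eif-2D, eif-2gamma, iff-1, eif-2Bbeta and eif-2Bdelta. By this count eIF2 and eIF2B had 4 of 8 genes and cap binding 4 of 7. Any pooled region, of the 30000, lay in the window of 37 members (92.5%), where 41.3% of all coding genes also had one. Single replicates held a region at 34 members in replicate 1 (85.0%, all coding genes 42.8%) and at 36 in replicate 2 (90.0%, all coding genes 40.7%).

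The replicates can be set side by side at their own strongest 1534 regions. Replicate 1 then had a region at 20 members (50%, all coding genes 7.94%), and replicate 2 at 21 members (52.5%, all coding genes 7.27%). Within 100 bp of the IDR summit, both replicates held a region for 20 of the 21 members (95.2%), beside 1373 of all 1534 IDR regions (89.5%). The exception was eif-3.I, whose replicate 2 region had its summit 321 bp upstream of the TSS instead of 200 bp. For 15 of the 21 members (71.4%) the matched region was among the first 1534 of both replicates, beside 790 of all 1534 (51.5%). The members' median rank was 812 in replicate 1 and 450 in replicate 2, and 11 stood higher in replicate 1 and 9 in replicate 2. At eef-1A.2, ife-2, eif-3.J and eif-1 the region was outside the first 1534 of replicate 1, and at eif-3.G outside those of replicate 2. The 2 members on X with an IDR summit, eef-1A.2 and ife-2, both ranked lower in replicate 1. Over all matched X summits the order was not the same, with 140 of 254 higher in replicate 1.

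**Figure D3:**
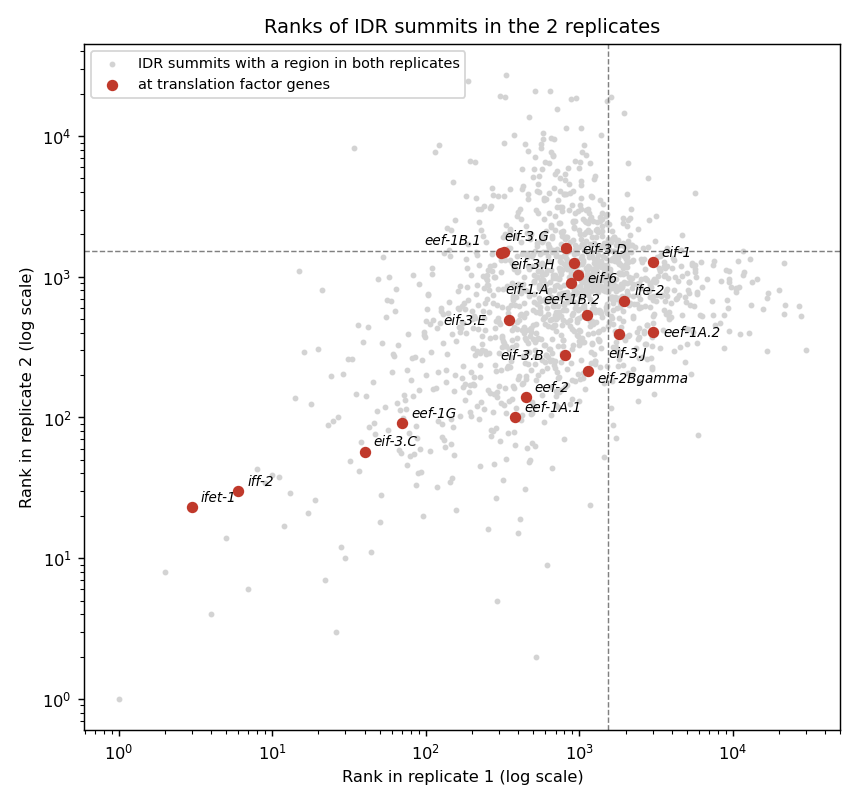
Rank in replicate 1 (x axis, log scale) against rank in replicate 2 (y axis, log scale) of IDR summits with a region within 100 bp in both replicates, with the translation factor genes in red and dashed lines at rank 1534. The strongest, ifet-1 and iff-2, are near the top of both replicates, and eef-1A.2 and eif-1 lie right of the vertical line at ranks 3004 and 3007.

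Nearly all summits lay upstream of the TSS, at the members as at all coding genes with an IDR summit. The median was 254 bp upstream of the gene's own TSS, 20 of 21 were upstream, and 14 were between 140 and 420 bp upstream. For all 1628 coding genes with an IDR summit the median was 230 bp, 1566 were upstream, and 796 were between 140 and 420 bp. The band of 140 to 420 bp was not among the planned settings, and no test was made of it. Intergenic sequence held 17 of the members' summits, and the others were the 5′ UTR, 3′ UTR, intron and noncoding exon given above for eef-1B.1, eif-3.J, eif-2Bgamma and ifet-1. The window limits how far a summit could lie.

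**Figure D4:**
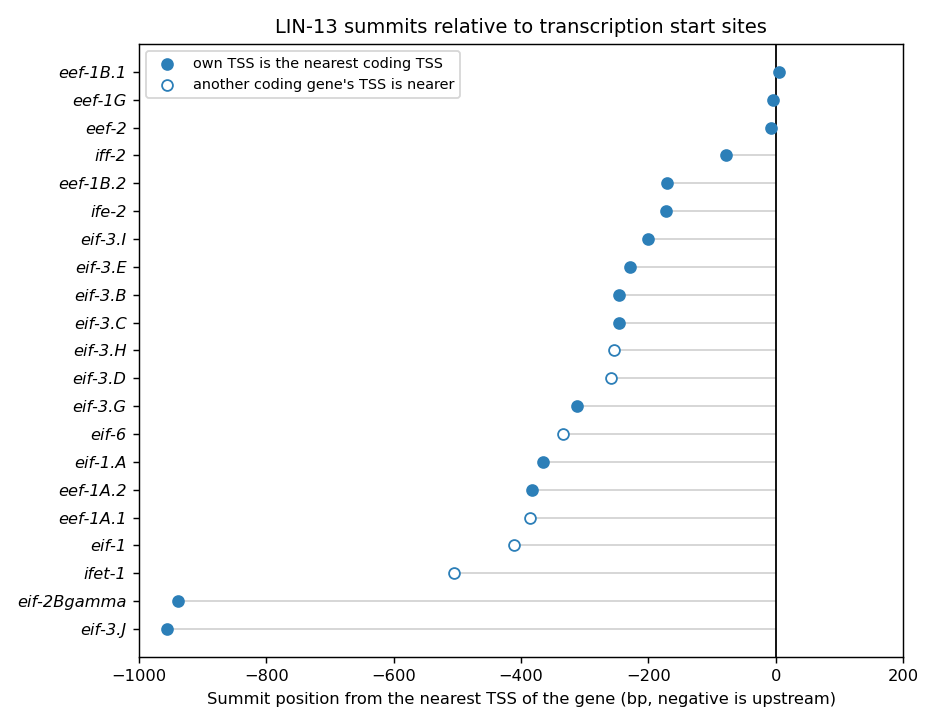
Position of the IDR summit from the nearest TSS of each of the 21 genes (bp, negative is upstream), with filled points where that TSS is the nearest coding TSS and open points where another coding gene's TSS is nearer. Positions run from 956 bp upstream at eif-3.J to 5 bp downstream at eef-1B.1, and 6 of the 21 points are open.

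Many of these summits lay between genes transcribed away from each other. Another coding gene had the same summit in its window for 13 of the 21 members (61.9%), near the 59.9% of all coding genes with an IDR summit. Each of the 13 had a partner on the opposite strand, as did 56.6% of all coding genes with an IDR summit (921 of 1628). The eef-1A.1 summit lay 155 bp upstream of rfc-4, which encodes a subunit of the clamp loader of DNA replication. The eef-1G summit lay 176 bp upstream of ctf-4, and that of eef-2 258 bp upstream of clsp-1, the claspin homolog. The eef-1B.1 summit was 336 bp upstream of aco-2, the mitochondrial aconitase. The eif-6 summit lay 332 bp upstream of pbs-2, a proteasome subunit gene, and 334 bp upstream of eif-6. The eif-1 summit lay 7 bp from the TSS of vps-24, a subunit of the ESCRT-III membrane complex, and 411 bp from that of eif-1. Those of eif-3.D and eif-3.H were also nearer to the partner, R08D7.4 at 56 bp and C41D11.3 at 116 bp. The other shared summits were those of eif-1.A, eif-3.E, eif-3.I, iff-2 and ifet-1. The own TSS was the nearest coding TSS for 15 of the 21 (all 1628 genes, 1123 or 69.0%). When each IDR region was given only to its nearest coding TSS, 15 members (37.5%) had one, against 7.25% of all coding genes. The summit of eef-1A.1 was 13 bp from the annotated start of the microRNA gene cel-mir-5549. ChIP-seq regions of this width cannot tell which of the neighbouring genes a summit belongs to.

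Genes inside an operon, common in C. elegans, are transcribed from the promoter of the first gene. A same-strand coding gene ended within 500 bp upstream of 8 members or overlapped their start (20%, all coding genes 20.7%), namely eef-1B.2, eif-2Bgamma, eif-2alpha, eif-2gamma, eif-3.C, eif-3.F, ife-1, which overlaps dro-1, and ife-5. An IDR summit was found for 3 of these 8 (eef-1B.2, eif-2Bgamma and eif-3.C) and for 18 of the other 32. Over all coding genes the shares were 5.36% and 8.88%. The eif-2alpha gene begins 132 bp after phb-1, a prohibitin gene, which had an IDR summit at rank 709. For the other 4 without an IDR summit, the first gene of the run had none either. Among all coding genes so placed and without an IDR summit, 686 of 3904 had a first gene with one. Operons themselves were not annotated in the files used, so this is the arrangement of genes only.

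Known motifs were sought on both strands within 100 bp of the summit, in the members' regions, in all 1534 IDR regions and in 27480 lower-ranked pooled regions. The E2F-like motif was spelled TTCCCGC in its first form, TTCGCGC in the second, TTGCCGC in the third and TTGGCGC in the fourth. It was in 4 of the 21 regions (19.0%), those of eef-1B.1, eef-1G, eef-2 and eif-3.D, with 3 matches at eef-2. The share was 20.3% of all IDR regions and 10.8% of the lower-ranked regions. The repeat GAGAGAGA was in 1 region, that of eef-1A.2 (4.76%, all IDR regions 8.67%, lower-ranked 3.01%). Neither CTGCGTCT nor CACGTG was in any of the 21, and 21 regions are too few to call either motif rare at such genes. These motifs were in 13.7% and 4.37% of all IDR regions and in 3.8% and 4.53% of the lower-ranked ones. The run ACGCTCC was noticed in the printed sequences, so its count is no independent result. It was in 4 member regions, at 0 bp from the summit at ifet-1, 7 bp at eif-6, 11 bp at iff-2 and 49 bp at eif-3.B. Of the 1513 IDR regions of no member 3.57% held it, as did 0.997% of the lower-ranked regions. Median GC content was 41.3% in the members' regions, 44.8% in all IDR regions and 40.3% in the lower-ranked ones. A match of letters is not a site of binding.

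The motif TATAAA, sought on both strands, was in 3 member regions (14.3%, all IDR regions 11.0%, lower-ranked 14.4%), at eif-3.B, eif-3.D and ife-2. Within 250 bp it was in 15 of the 21 (71.4%, all IDR regions 41.9%, lower-ranked 36.3%), where the median GC content was 34.7%, 37.7% and 38.5%. In steps of 50 bp along the gene's strand, the members' highest share was at 100 to under 150 bp downstream of the summit, toward the gene. There it was found at 7 of the 21 genes (33.3%), eef-1B.2, eef-1G, eif-3.D, eif-3.G, eif-3.H, eif-3.I and eif-3.J. Of 66 ribosomal protein genes with an IDR summit 5 (7.58%) had it there, and of 1541 other coding genes 143 (9.28%). Since 2 of the 9 matches were on the strand of the gene, most were not in the orientation of a TATA box of that gene. At eef-1G the matches lay 127 and 129 bp downstream of the summit, inside the gene. The step was singled out after its values were seen, and no test was made of it.

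**Figure D5:**
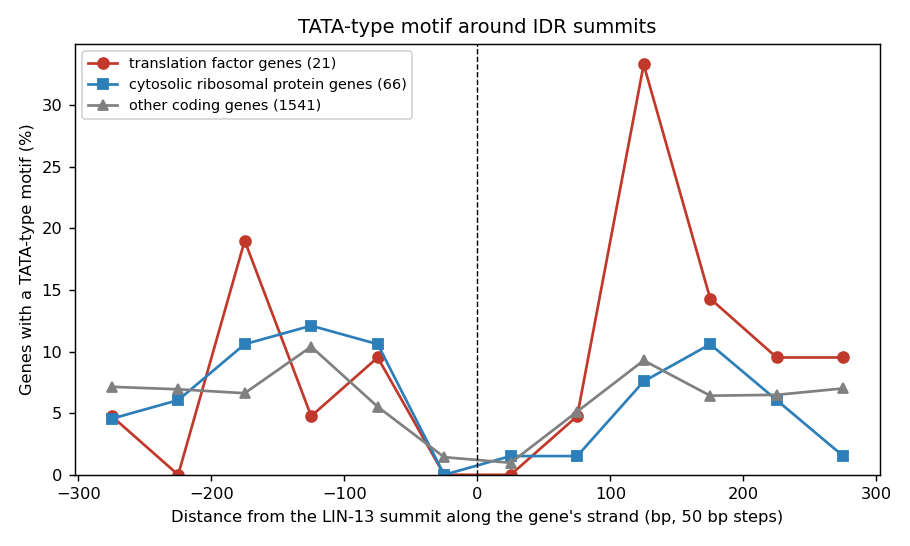
Share (%) of genes with a TATA-type motif on either strand in steps of 50 bp from the IDR summit along the gene's strand (bp, positive is toward the gene), for 21 translation factor genes (red circles), 66 ribosomal protein genes (blue squares) and 1541 other coding genes (grey triangles). The red line reaches 33.3% at 100 to under 150 bp downstream, where the others are at 7.58% and 9.28%.

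The genes most like these in function differed widely. Cytosolic ribosomal protein genes had an IDR summit in 66 of 78 cases (84.6%), and aminoacyl-tRNA synthetase genes, which charge tRNAs, in 5 of 32 (15.6%): ears-2 at rank 37, tars-1 at 771, nars-1 at 1436, kars-1 at 1471 and fars-1 at 1509. The other translation genes, a list of 33 symbols of which 30 were found in the annotation, had 12 of 30 (40.0%). The strongest were drr-2, an eIF4H homolog, at rank 26, abcf-2 at 153, clu-1 at 288, the poly(A)-binding protein gene pab-1 at 465, the termination factor gene erfa-3 at 470 and the mitochondrial elongation factor gene tufm-1 at 551. The eIF4A gene inf-1, the partner of ifg-1 in eIF4F, had none, nor did the kinase genes efk-1, gcn-2, pek-1, rsks-1 and let-363, whose products act on translation factors or their regulators. The pab-1 region was also that of the ribosomal protein gene rpl-30, so the counts are of genes and not of separate regions. The shares of these groups were not tested against that of the translation factors.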

How the data were processed

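The data were region lists in narrowPeak format for ce11 from 2 biological replicates of 1 group, so no groups were compared. Per the file headers of the deposit, alignments of a replicate and a control gave that replicate's list, alignments of both replicates gave the pooled list, and IDR on these 3 gave the final list. The sources used here do not give the aligner, peak caller or IDR threshold. The deposited signal (column 7) is the authors' value for a region. Its scale was not the same from list to list, so regions were ranked by it only within a list. The deposited −log10 q value (column 9) was used only for the count at q of at most 0.05. The lists in ce10 were not used here, since positions were not converted. Depth is unknown, and no counting intervals were given.

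Genes and TSSs came from Ensembl release 115 of WBcel235, which is ce11. Summits were matched between lists within 100 bp. Protein identity was computed from the longest annotated coding sequences. Every member was named, with the 3 strongest outside the IDR list in full, sequences for at most 6 regions and at most 6 genes per other list. The kinase genes and inf-1 were named after their values were seen. The members, lists and motifs were chosen with earlier results of these data known. The window count was tested on simulated data for 2000 genes, each with a single TSS and no more than a single region, all of them correct. Summits shared by genes and genes with several TSSs were not simulated. Alternatives were other windows, the nearest TSS, the stronger part of the IDR list, single replicates, motif windows, gene gaps and matching distances. Python 3.11.15, numpy 2.4.6, pandas 2.3.3 and matplotlib 3.10.9 were used.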

Additional observations from a re-analysis of the deposited data

How the results depend on the processing

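The number of translation factor genes with an IDR summit, 21, was 18 with 500 bp upstream (without eif-2Bgamma, eif-3.J and ifet-1), 22 with 2000 bp (with eif-2alpha) and 15 by nearest coding TSS. For all coding genes, 1628 in the main window, the numbers in these settings were 1343, 2051 and 1449. Above the median signal of the IDR list the members' number was 13, against 914 of all coding genes. With the first 1534 regions of a single replicate it was 20 to 21, and 1452 to 1586 for all coding genes. Replicate 2 alone lost eif-3.G and gained ife-4, and replicate 1 alone lost eef-1A.2, eif-1, eif-3.J and ife-2 and gained eif-2gamma, eif-4A3 and ifg-1. The median distance of 254 bp stayed between 229 and 266 bp in the alternatives run. Both replicates held a region at 19 to 21 members when summits were matched within 50 or 200 bp. Within 50 bp of the summit the E2F-like motif was in 2 member regions (9.52%, all IDR regions 13.8%) and TATAAA in 0 (all IDR regions 2.67%). Within 250 bp TATAAA was in 15 member regions (71.4%, all IDR regions 41.9%). A close same-strand upstream gene was found for 4 of the 40 members at a gap of 200 bp (all coding genes 12.3%). At 1000 bp it was found for 13 of the 40 (32.5%, all coding genes 31.3%). An IDR summit was found for 0 of these 4 and 5 of these 13, beside 3 of 8 at 500 bp. For all coding genes with a close upstream gene the shares were 4.16%, 5.31% and 5.36% at 200, 1000 and 500 bp. The following choices were made after the data were seen: the count at q of at most 0.05 (28), the run ACGCTCC, and the step for TATAAA (6 to 7 members with replicate summits). The cause of these changes was not tested. No paired analysis was possible because there was 1 group. Without read counts, precision at weak regions such as eif-1 and ifg-1 is unknown.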
